A study of Mus musculus with 28 samples.

Results

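PD-1-negative CD8+ T cells were sorted from MC38-OVA tumours, a mouse colon carcinoma line carrying ovalbumin, and effector-like cells were set against naïve-like cells from the same kind of tumour. The comparison uses 9 of the 28 samples in the series, namely the 3 libraries labelled effector-like and the 6 labelled naïve-like in 1 count table, and it covers every gene of that table. All mice were wild type on the C57BL/6 strain, and the labels give no treatment for either group and no age. Effector-like cells were CD62L- Slamf7hi CX3CR1+ and naïve-like cells were CD62Lhi Slamf7- CX3CR1-, both within the PD-1- gate. Each library held the RNA of about 2000 cells, prepared with an adapted SMART-Seq2 protocol, which copies polyadenylated RNA from few cells. The third subset of the table, memory-like cells (CD62L- Slamf7hi CX3CR1-, 5 libraries), is given as a reference level for single genes. A date stands in every library name, and the naïve-like libraries have a different one from the effector-like and memory-like libraries. What the date marks is not stated, and its part in a difference cannot be told apart from that of the cell state. The name of effector-like library 1 carries the numbers 1, 2 and 3, that of library 2 carries 4, 5 and 6, and that of library 3 carries 5. These libraries may therefore be pools that share animals, and a p-value here covers only the spread among these libraries, which may be technical. In such bulk samples, fewer cells of a type and less RNA per cell cannot be told apart.

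Naïve CD8+ T cells recirculate through lymph nodes by way of CCR7, depend on IL-7 for survival, and are held quiescent by transcription factors such as TCF-1, LEF1, BACH2 and FOXO1. On activation, T-bet, Blimp-1, ZEB2 and ID2 drive effector differentiation, in which cells gain granzymes, perforin, inflammatory chemokines and tissue homing receptors and lose the lymph node program. CX3CR1 together with KLRG1 and S1PR5 is known from circulating, strongly cytotoxic effector cells.

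Depth was 5027523 to 6786375 counts per effector-like and 6689348 to 7978932 per naïve-like library, with 13508 to 15032 and 11522 to 14352 genes detected. Tumour and stroma markers (28 genes) summed to 1944 and 1709 CPM, that is, counts scaled to a common normalised library size, in effector-like 1 and 2 and to 61.3 in effector-like 3. In the naïve-like group they summed to 1166 in naïve-like 6 and to 78.3 to 190 in the others. Of the 20 of these genes that could be tested, 17 had a positive log2 fold change, and the 1 called, Pecam1, was lower. Without naïve-like 6, 6 of them were called higher. Myeloid markers summed to 914 to 2892 CPM in effector-like and 249 to 2478 in naïve-like libraries, which overlapped. The complement genes C1qa, C1qb and C1qc were at 0 to 0.131 CPM in the effector-like libraries, and C1qb ranged from 0 to 76.0 with a median of 9.72 in the naïve-like ones. The 7 CD4 T cell markers that could be tested had 4 positive log2 fold changes, a median of 1.66 and 1 call (Il2ra, higher), and the list summed to 75.3 to 111 CPM in effector-like and 52.1 to 136 in naïve-like libraries. Of these markers, Foxp3, which marks regulatory T cells, was at 0 in every effector-like and at up to 0.163 CPM in naïve-like libraries. The part of tumour or myeloid RNA in single results was not tested, and counts are given below without effector-like 1, effector-like 2 and naïve-like 6, which leaves 1 effector-like library assumed to vary like the other groups. Rn45s, the 45S ribosomal RNA gene, made up 10.7 to 14.1% of effector-like and 17.8 to 20.7% of naïve-like counts, without overlap.

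**Figure D1:**
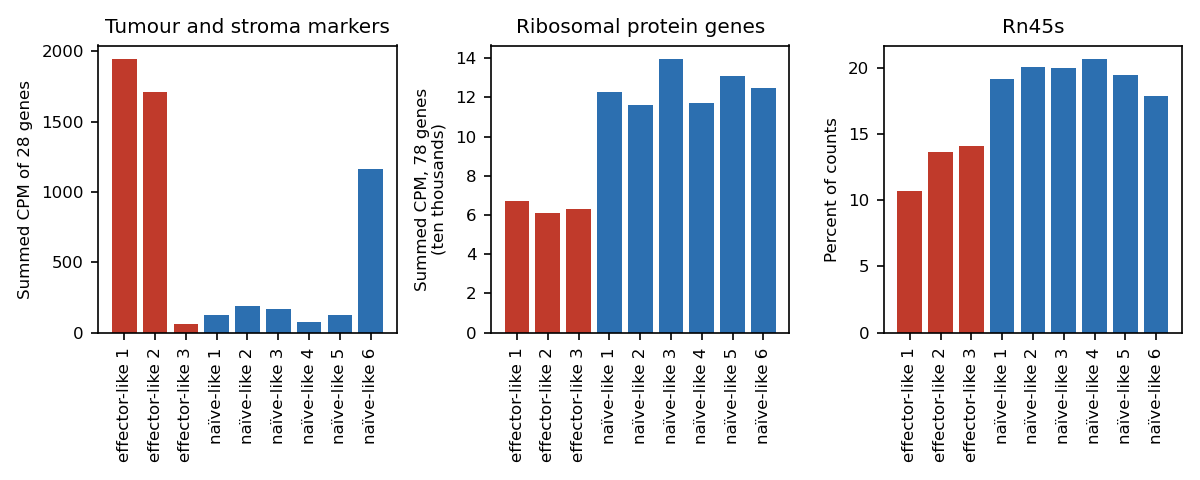
Summed CPM of 28 tumour and stroma markers (left), summed CPM of 78 ribosomal protein genes (middle) and percent of counts from Rn45s (right), 1 bar per library, effector-like in red and naïve-like in blue. Effector-like 1, effector-like 2 and naïve-like 6 stand above the other libraries for the tumour and stroma markers, while ribosomal protein genes and Rn45s are lower in all 3 effector-like libraries.

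Slamf7 and Cx3cr1 followed the gates, which checks the labels and is no finding. Slamf7 was at 138, 150 and 248 CPM in the 3 effector-like libraries and at 12.8 to 36.1 in the naïve-like ones, and Cx3cr1 at 270, 250 and 406 against 0 to 5.71. Pdcd1, which encodes PD-1, was at 75.3, 38.4 and 56.2 CPM in effector-like and at 5.10 to 23.5 in naïve-like libraries, and its mRNA was higher in effector-like cells although both came from the PD-1- gate (log2 fold change 1.91 ± 0.35 SE, adjusted p = 0.00333). Without the 3 libraries named above it was 1.89 with an adjusted p of 0.117. Cd8a was high in both, at 547, 599 and 793 against 423 to 490 CPM (0.50 ± 0.12, adjusted p = 0.0196, and 0.33 with an adjusted p of 0.139 without effector-like 3).

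Of 12388 genes tested with edgeR's quasi-likelihood test, 795 (6.42%) passed an adjusted p of 0.05, 325 higher (2.62%) and 470 lower (3.79%) in effector-like cells. Among them, 88 were at least 2 log2 units higher and 97 at least 2 log2 units lower. The values of the 3 effector-like libraries lay wholly outside those of the 6 naïve-like libraries for 736 of the called genes and for 12.9% of all genes tested. The median log2 fold change of all genes was 0.04. The shares of 2.62% and 3.79% of all genes are the reference for the list counts below, and a count near them is no result about a list. Without effector-like 1, effector-like 2 and naïve-like 6, 791 of the 795 had the same sign. That fit uses libraries of the main fit, and genes without overlap keep their sign in it. The agreement was therefore largely fixed in advance. Higher genes made up 40.9% of the calls, and this share moved to 52.8% without naïve-like 6 and to 66.7% with library totals in place of TMM scaling, which raised the median of all genes to 0.25.

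**Figure D2:**
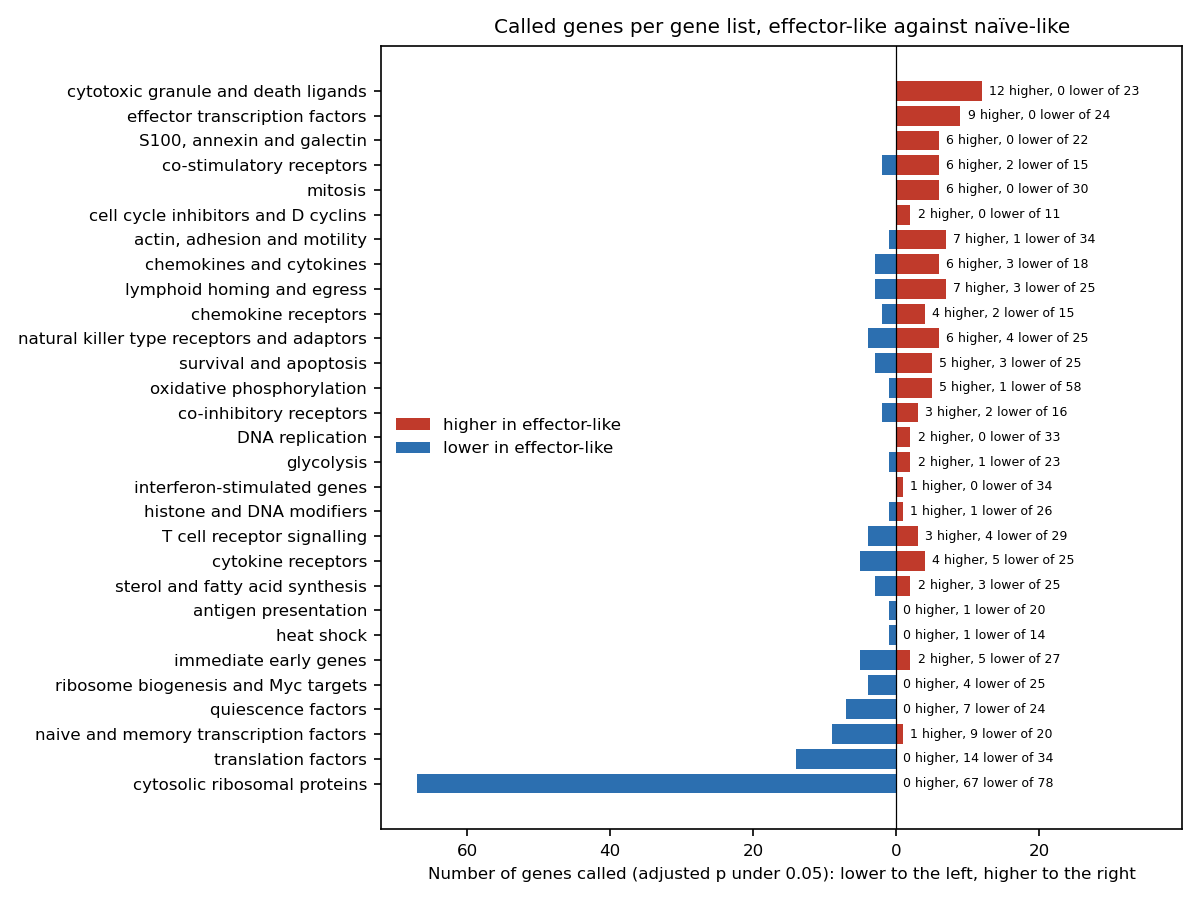
Number of genes called at an adjusted p under 0.05 in each gene list, lower in effector-like cells to the left and higher to the right, with the number tested beside each bar. Cytosolic ribosomal proteins have 67 of 78 genes lower, and cytotoxic granule and death ligand genes have 12 of 23 higher.

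Of 20 naïve and memory transcription factors tested, 9 were lower and 1 was higher, with a median log2 fold change of -0.71. Tcf7, which encodes TCF-1, was at 94.3, 82.4 and 122 CPM in effector-like and at 592 to 808 (median 733) in naïve-like libraries (-2.87 ± 0.17, adjusted p = 9.37e-08). Every effector-like library was well below the lowest naïve-like one. Myb, a stem and progenitor factor that restrains terminal differentiation, was at 2.10, 0.945 and 0.586 CPM against 25.4 to 69.4 (median 42.9), the steepest fall of the list (-5.12 ± 0.52, adjusted p = 1.19e-05). Id3, an inhibitor of E proteins tied to memory potential, was at 12.6, 6.93 and 3.12 CPM against 51.1 to 101, and Bach2, a repressor of effector genes, at 19.4, 8.82 and 13.9 against 61.7 to 93.2. Both fell without overlap, Id3 by 3.22 ± 0.43 and Bach2 by 2.50 ± 0.30 on the log2 scale. Smaller declines were measured for Satb1, a chromatin organiser (-1.85 ± 0.22), for Lef1, the partner of TCF-1 (-1.78 ± 0.23), and for Foxp1, a quiescence factor (-0.85 ± 0.13). Foxo1 (-1.06 ± 0.22) and Zeb1 (-2.06 ± 0.44) fell as well, but lost the call without effector-like 2 (Foxo1, adjusted p = 0.0575) or effector-like 1 (Zeb1, adjusted p = 0.0601). Without the 3 libraries rich in tumour markers, 8 members of the list were called lower.

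Rora, which encodes the nuclear receptor ROR-alpha and was placed in the same list, was at 98.1, 68.2 and 122 CPM against 11.6 to 30.03 (2.45 ± 0.34, adjusted p = 0.000241), the only factor of the list called higher. Eomes, a T-box factor of memory and effector cells, overlapped at 27.1, 31.8 and 23.2 against 7.02 to 32.4 CPM (0.38 ± 0.41, adjusted p = 0.703). Klf2, which sustains S1pr1 transcription, also overlapped, at 44.2, 73.7 and 90.6 against 42.3 to 76.7 CPM (0.26 ± 0.28, adjusted p = 0.693). Neither gene was called, and the simulation described below recovered 22% of genes changed 2-fold, so a difference could be missed.

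Of 24 effector transcription factors, 9 were higher and 0 were lower with edgeR, with a median of 0.18. DESeq2 also called 0 lower, and 2 were lower at an unadjusted p under 0.05. Without the 3 libraries rich in tumour markers, 5 were higher. Zeb2, a repressor that completes terminal effector differentiation, was at 81.3, 124 and 148 CPM against 0 to 23.3 (median 11.6; 3.24 ± 0.65, adjusted p = 0.0058, and 0.0841 without the 3 libraries rich in tumour markers). Prdm1, which encodes Blimp-1, was at 40.8, 48.0 and 61.1 CPM against 0.490 to 9.76 (2.87 ± 0.49, adjusted p = 0.00171). Neither overlapped between the groups, and both lay between the extremes in memory-like libraries, at 17.9 to 40.8 and 14.9 to 25.4 CPM. Bhlhe40, an activation-induced factor that supports cytokine production and mitochondrial fitness, was at 583, 669 and 1060 CPM against 103 to 204 (2.23 ± 0.23, adjusted p = 1.8e-05). Id2, the effector counterpart of Id3, was at 447, 466 and 650 CPM against 137 to 263 (1.44 ± 0.17), and Tbx21, which encodes T-bet, at 204, 204 and 327 against 72.0 to 159 (1.37 ± 0.25). Tox, a factor of chronically stimulated cells, was at 19.5, 3.31 and 15.6 CPM against 6.69 to 60.6 and did not pass (adjusted p = 0.18). Ikzf2, which encodes Helios and was named after its values were seen, was at 13.5, 7.72 and 8.003 CPM against 74.1 to 156 (-3.45 ± 0.30, adjusted p = 2.77e-06).

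**Figure D3:**
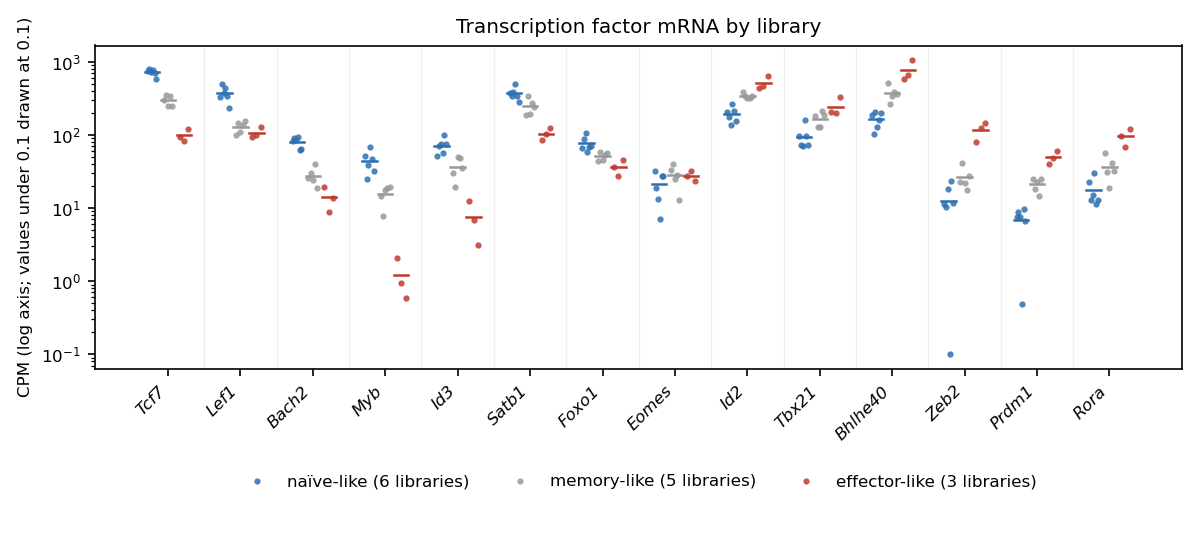
CPM (log axis) of 14 transcription factor genes in each library, with a bar at the group mean, for naïve-like (blue, 6 libraries), memory-like (grey, 5) and effector-like (red, 3) cells. Tcf7, Bach2, Myb and Id3 are lowest and Zeb2, Prdm1, Bhlhe40 and Rora highest in effector-like cells, while Eomes overlaps.

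Of 25 homing and egress genes, 7 were higher and 3 lower, a count that includes a gene of the gate. Without effector-like 3, 5 were lower, and without the 3 libraries rich in tumour markers 3 were higher and 3 lower. Ccr7, the lymph node entry receptor, was at 40.7, 48.8 and 126 CPM against 910 to 1427 (-3.99 ± 0.38, adjusted p = 8.1e-06). A pair of sphingosine-1-phosphate receptors went opposite ways. S1pr1, which draws cells out of lymphoid tissue, was at 139, 114 and 202 CPM against 342 to 603 (-1.66 ± 0.21, adjusted p = 0.000105), whereas S1pr5, a receptor of cytotoxic effector cells, was at 97.7, 97.7 and 117 against 0 to 6.64 (median 0.883; 5.66 ± 1.09, adjusted p = 0.00448). In memory-like libraries S1pr1 was at 129 to 191 CPM, overlapping the effector-like values, while S1pr5 was at 0 to 20.9, below all of them. Without the 3 libraries rich in tumour markers, S1pr5 was at 5.59 with an adjusted p of 0.0831.

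Itgb1, the beta-1 chain of the VLA integrins, was at 580, 422 and 483 CPM against 67.6 to 176 (2.01 ± 0.22, adjusted p = 2.42e-05). Itgal and Itgb2, the chains of LFA-1, were at 892, 964 and 1270 against 329 to 491 CPM and at 860, 716 and 940 against 338 to 462 (1.40 ± 0.14 and 1.10 ± 0.13). Both LFA-1 chains rose and neither overlapped. Among 15 receptors for chemokines the test called 4 higher and 2 lower, Cx3cr1 and Ccr7 included. Cxcr5, the receptor for entry into B cell follicles, had 0 counts in all 3 effector-like libraries and 39.0 to 87.2 CPM (median 51.2) in naïve-like ones, at least 361-fold higher in naïve-like cells when 3 counts over the effector-like group are taken as the floor. The memory-like libraries held 10.5 to 47.5 CPM of Cxcr5. Ccr2, a receptor of inflammatory chemokines, was at 188, 96.7 and 172 CPM against 27.01 to 55.1, without overlap (adjusted p = 0.00102). Cxcr6, the receptor for CXCL16, was at 162, 73.1 and 259 CPM against 30.5 to 74.0, overlapped in effector-like 2, and lost the call without effector-like 3 (adjusted p = 0.0834).

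Of 23 cytotoxic granule and death ligand genes, 12 were higher, with a median of 1.79. With edgeR 0 were lower, as with DESeq2 and at an unadjusted p under 0.05, and 9 were called higher without the 3 libraries rich in tumour markers. Gzma, which encodes granzyme A, was at 1404, 1282 and 1523 CPM against 14.2 to 65.0 (median 32.9; 5.26 ± 0.33, adjusted p = 1.05e-07). Gzmb, the main apoptosis-inducing granzyme, was at 2073, 3230 and 4131 CPM against 96.3 to 425 (median 140; 4.03 ± 0.45, adjusted p = 3.38e-05). Granzyme B mRNA was therefore present in every naïve-like library. In memory-like libraries Gzma was at 157 to 256 CPM, well under the effector-like values, and Gzmb at 737 to 2645, overlapping them.

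Gzmm was at 66.2, 54.0 and 65.8 CPM against 9.36 to 18.4 (2.29 ± 0.23), and Nkg7, a granule membrane protein needed for degranulation, at 1558, 1453 and 2088 against 525 to 773 (1.35 ± 0.14). Other members were named after their values were seen. Gzmk was at 91.3, 78.1 and 87.6 CPM against 1.51 to 13.7 (3.66 ± 0.45), a granzyme best known from memory cells. Prf1, the pore-forming perforin, was at 339, 170 and 281 CPM against 37.2 to 92.6 (2.19 ± 0.30), Fasl, the death ligand, at 342, 401 and 684 against 37.0 to 122 (2.68 ± 0.31), and Serpinb9, an inhibitor that shields the cell from its own granzyme B, at 586, 621 and 760 against 79.9 to 196 (2.14 ± 0.27). These 4 genes passed at adjusted p of 0.000206 or less without overlap. Gzmc was at 215, 101 and 44.9 CPM against 0 to 1.06 (8.58 ± 1.45, adjusted p = 0.00152, and 6.86 without the 3 libraries rich in tumour markers). This was the order of the tumour marker sums of the effector-like libraries. Naïve-like 6, with 1166 CPM of these markers, had 0 CPM of Gzmc, and memory-like libraries held 0 to 142 CPM of it. The part of tumour RNA in Gzmc was not tested. Granzyme genes resemble each other, so their counts can share reads.

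**Figure D4:**
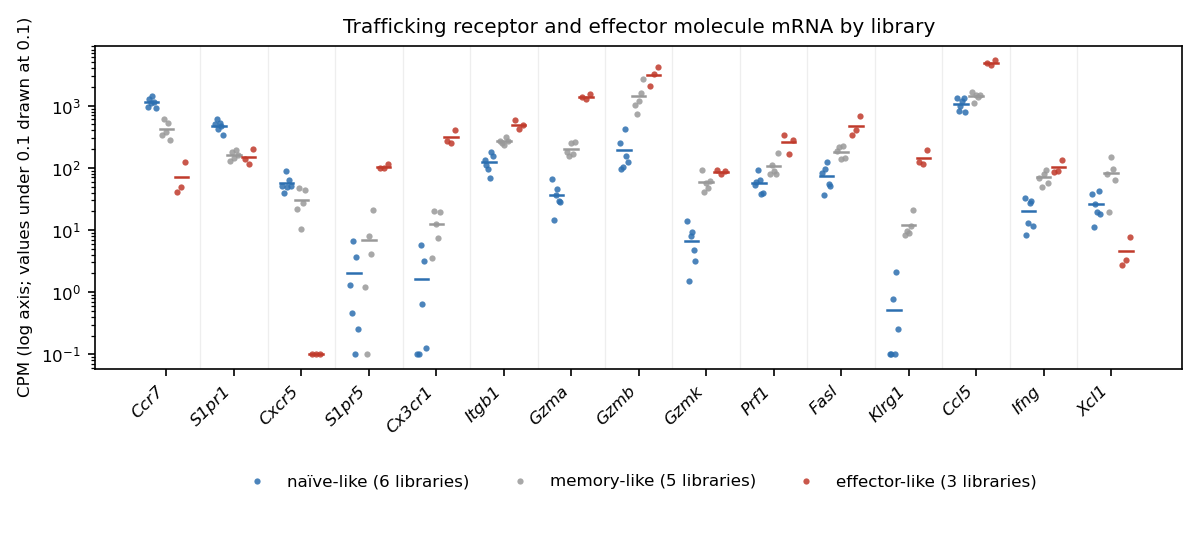
CPM (log axis, values under 0.1 drawn at 0.1) of 15 trafficking and effector genes in each library, with a bar at the group mean, for naïve-like (blue, 6 libraries), memory-like (grey, 5) and effector-like (red, 3) cells. S1pr5, Gzma and Klrg1 separate effector-like from both other groups, as does Cx3cr1, whose protein chose the cells. Cxcr5 has 0 counts in effector-like libraries.

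Natural killer type receptors moved in both directions, with 6 of 25 tested higher and 4 lower. Klrg1, the inhibitory receptor of terminal effector cells, was at 124, 114 and 193 CPM against 0 to 2.10 (median 0.127; 8.06 ± 0.73, adjusted p = 4.08e-06). Klrc1, which encodes NKG2A, was at 161, 231 and 374 CPM against 27.2 to 73.4 (2.24 ± 0.27, adjusted p = 5.54e-05), while its dimer partner Klrd1, the CD94 chain, overlapped at 247, 219 and 327 against 211 to 333 (0.06 ± 0.15, adjusted p = 0.898; its sign changed in 3 of the alternative fits). Klrk1, which encodes the activating receptor NKG2D, was at 430, 520 and 694 CPM against 119 to 335 (1.57 ± 0.26), and Klrb1c, the NK1.1 gene, at 75.4, 136 and 107 against 14.98 to 37.4 (1.97 ± 0.32, and an adjusted p of 0.0538 without the 3 libraries rich in tumour markers). Klra7 and Klra6 encode Ly49 receptors, which bind classical MHC class I. Klra7 was at 31.9, 13.4 and 6.83 CPM against 176 to 301 (median 279; -3.90 ± 0.39, adjusted p = 1.18e-05), and Klra6 at 3.28, 0 and 0 against 78.6 to 160 (-6.56 ± 0.71, adjusted p = 2.52e-05). The fold of Klra6 rests on effector-like 1, the only effector-like library with a count, and was -12.53 without it, a value that depends on how the fit treats 0 counts. Memory-like libraries held 154 to 258 CPM of Klra7 and 99.2 to 162 of Klra6, near the naïve-like levels.

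Of 15 Ly49 genes tested, 7 were lower. The others called lower, named after their values were seen, were Klra1 (1.57, 4.25 and 1.17 CPM against 46.9 to 142, and an adjusted p of 0.0655 without the 3 libraries), Klra13-ps (2.23, 1.89 and 0 against 19.03 to 47.9), Klra23 (0.787, 3.15 and 0.390 against 19.3 to 44.9), Klra5 (0, 0.473 and 0.390 against 0.618 to 11.1) and Klra22 (0 counts in effector-like against 0 to 4.20 CPM). Klra5 lost the call without any 1 of the effector-like libraries and Klra22 also without naïve-like 1, 3, 4, 5 or 6 (adjusted p up to 0.154, without effector-like 1). Klra3 and Klra9 were lower on average but overlapped (-1.70 and -0.84, adjusted p = 0.0774 and 0.451). Without the 3 libraries rich in tumour markers, their log2 fold changes were -3.01 and -3.77. Ly49 genes resemble each other, so shared reads can be split among them and single members are uncertain. In the RefSeq gene table (GRCm38.p6), Klrb1c, Klrk1 and Klrc1, which rose, precede Klra5, Klra6, Klra7, Klra13-ps and Klra1, which fell, along the same chromosome. Klra23, which also fell, is listed ahead of all of them, before Klrg2 and apart from the other Ly49 genes, and this place was not checked. Klrd1, which did not pass, lies between Klrb1c and Klrk1.

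Of 18 chemokine and cytokine genes tested, 6 were higher and 3 lower. Ccl5, which recruits T cells and myeloid cells, was among the most abundant mRNAs at 4880, 4442 and 5394 CPM against 805 to 1337 (2.19 ± 0.16, adjusted p = 6.74e-07). Ccl4 was at 343, 290 and 505 CPM against 30.05 to 98.6 (2.76 ± 0.31) and Ccl3 at 74.9, 47.6 and 67.5 against 2.94 to 22.8 (2.25 ± 0.42). Ifng was at 86.0, 88.8 and 136 CPM against 8.30 to 32.8 (2.35 ± 0.37, adjusted p = 0.000741), and Tnf, named after its values were seen, at 67.0, 53.1 and 74.4 against 14.2 to 38.4 (1.3035 ± 0.28; adjusted p = 0.0546 without effector-like 3). None of these 5 overlapped. Ltb, which encodes lymphotoxin beta, was at 105, 77.5 and 135 CPM against 290 to 425 (-1.72 ± 0.22, adjusted p = 0.000109). Tnfsf8, the CD30 ligand, was at 0, 0 and 2.73 CPM against 36.7 to 69.9 (-6.04 ± 0.82, adjusted p = 0.000198, and -11.45 without effector-like 3, the only effector-like library with a count, which again depends on the treatment of 0 counts). Xcl1, the chemokine for cross-presenting dendritic cells, was at 2.75, 3.31 and 7.81 CPM against 11.2 to 41.7 (-2.50 ± 0.61, adjusted p = 0.0200), and it lost the call without effector-like 1 (adjusted p = 0.116) or effector-like 2. Xcl1 was highest in memory-like libraries, at 19.5 to 151 CPM, and its naïve-like values overlapped them.

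Cytokine receptors moved in both directions, with 4 of 25 higher and 5 lower (3 lower without effector-like 3, and 1 without the 3 libraries rich in tumour markers). Il7r, the receptor chain for the survival cytokine IL-7, was at 139, 113 and 221 CPM against 429 to 766 (-1.89 ± 0.24, adjusted p = 0.000103). Il6ra and Il6st, the 2 chains of the IL-6 receptor, were at 7.9999, 3.78 and 4.10 against 24.3 to 93.6 CPM and at 42.2, 60.5 and 36.5 against 77.8 to 179 (-3.22 ± 0.55 and -1.29 ± 0.29), and Il6st lost the call without effector-like 3 (adjusted p = 0.0762) or effector-like 1. Il4ra was at 183, 356 and 391 CPM against 688 to 824 (-1.31 ± 0.21). Without the 3 libraries rich in tumour markers, Il6ra and Il4ra had adjusted p of 0.0657 and 0.0614. Il12rb2, Il10ra and Il18rap, chains of the receptors for IL-12, IL-10 and IL-18, rose. Il12rb2 was at 319, 481 and 708 CPM against 58.4 to 195 (2.07 ± 0.30), Il10ra at 287, 339 and 438 against 41.8 to 87.1 (2.29 ± 0.22), and Il18rap at 216, 201 and 298 against 42.0 to 138 (1.55 ± 0.26). Il2ra, the high-affinity IL-2 receptor chain, was low in all, at 19.02, 27.1 and 31.8 against 0.326 to 9.57 CPM (3.13 ± 0.69, adjusted p = 0.0110, and 0.129 without the 3 libraries rich in tumour markers). Cish, an IL-2 and STAT5 target, was at 286, 270 and 544 CPM against 49.8 to 90.1 (2.39 ± 0.27), while Socs3, which blocks IL-6 family signals, was at 320, 314 and 474 against 742 to 1079 (-1.29 ± 0.16). Both were named after their values were seen.

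Among 15 co-stimulatory receptor genes, 6 were higher, including Slamf7 of the gate, and 2 lower. Slamf1 was at 109, 94.2 and 198 CPM against 12.7 to 43.4 (2.26 ± 0.29), and Cd48 at 377, 331 and 450 against 90.9 to 171 (1.49 ± 0.18). Tnfrsf9, the activation-induced receptor 4-1BB, named after its values were seen, was at 151, 256 and 346 CPM against 10.2 to 122 (median 23.1; 2.80 ± 0.57, adjusted p = 0.00641). Icos was at 283, 180 and 633 CPM against 108 to 163 (1.44 ± 0.29), and without effector-like 3, its highest library, it was 0.79 with an adjusted p of 0.0684. Cd27, a co-stimulatory receptor lost by late effector cells, was at 69.1, 37.8 and 89.0 CPM against 170 to 230 (-1.57 ± 0.25, and -1.16 with an adjusted p of 0.0941 without the 3 libraries rich in tumour markers), and Slamf6, a marker of progenitor-like T cells, at 61.2, 43.9 and 51.1 against 69.8 to 165 (-1.29 ± 0.25). Of 16 co-inhibitory genes, 3 were higher, including Pdcd1 of the gate, and 2 lower (1 lower without effector-like 2, and 1 each way without the 3 libraries). Entpd1, which encodes the ectonucleotidase CD39, was at 92.5, 91.4 and 108 CPM against 0 to 20.1 (3.18 ± 0.71, adjusted p = 0.0124, and 0.164 without the 3 libraries), and Lilrb4 at 253, 404 and 345 against 62.2 to 148 (1.80 ± 0.25). Myeloid cells also express these 2 genes. The myeloid marker sum was 2892, 914 and 1128 CPM in the 3 effector-like libraries and 249 to 2478 CPM in the naïve-like ones. Of 22 myeloid markers tested, 6 had a positive log2 fold change, and the median was -1.11. The part of myeloid RNA in the values of Entpd1 and Lilrb4 was not tested. Tigit and Btla were lower, at 69.8, 45.1 and 65.4 against 79.9 to 194 CPM and at 24.1, 24.4 and 10.9 against 39.8 to 81.7 (-1.12 ± 0.26 and -1.44 ± 0.30), and Tigit lost the call without effector-like 2 (adjusted p = 0.0958). Co-inhibitory genes thus moved in both directions.

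Of 29 T cell receptor signalling genes, 3 were higher and 4 lower, with a median of 0.04. Without effector-like 3 a single gene was higher, and without the 3 libraries rich in tumour markers 2 were higher and 1 lower. Dgka, the kinase that removes diacylglycerol, was at 266, 265 and 392 CPM against 664 to 1140 (-1.66 ± 0.19, adjusted p = 3.09e-05). Cblb, a ubiquitin ligase that restrains activation, was at 178, 158 and 175 against 227 to 358 (-0.69 ± 0.13, adjusted p = 0.00477, and 0.154 without the 3 libraries). Sh2d2a, a T cell adaptor, was at 717, 770 and 1139 CPM against 414 to 613 (0.79 ± 0.15). Of 24 quiescence genes, 7 were lower and 0 higher with edgeR (1 higher with DESeq2, and 3 higher at an unadjusted p under 0.05). Rgs10, a regulator of G protein signals, was at 7.87, 5.04 and 2.73 CPM against 79.1 to 137 (-4.31 ± 0.34, adjusted p = 1.1e-06), and Dapl1 at 2.49, 1.26 and 1.95 against 16.9 to 40.5 (-3.80 ± 0.45). Zfp36l1, an RNA-binding protein that limits the cell cycle, was at 132, 103 and 175 CPM against 213 to 292 (-0.85 ± 0.16). Without effector-like 2, 4 of the quiescence genes were lower, and without the 3 libraries rich in tumour markers 3 were, Zfp36l1 not among them (adjusted p = 0.387).

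Of 25 survival and apoptosis genes, 5 were higher and 3 lower. A single gene was lower without effector-like 1, without effector-like 2 or without the 3 libraries rich in tumour markers, and 3 were higher without those 3. Bcl2 overlapped at 329, 395 and 534 against 456 to 603 CPM (-0.35 ± 0.16, adjusted p = 0.231). Bcl2l1, which encodes BCL-XL, was at 118, 131 and 189 CPM against 21.5 to 50.7 (2.03 ± 0.24, adjusted p = 5.28e-05). Bcl2a1b and Bcl2a1d, near-identical copies whose reads may be shared, were at 191, 196 and 313 against 20.8 to 51.9 CPM and at 120, 118 and 159 against 3.82 to 21.9 (2.57 ± 0.24 and 3.72 ± 0.39). The pro-apoptotic Pmaip1, which encodes NOXA, was higher too, at 142, 189 and 174 against 18.8 to 82.3 CPM (1.60 ± 0.34, and an adjusted p of 0.157 without the 3 libraries). Pim2, a survival kinase downstream of common gamma chain cytokines, was at 80.0, 65.7 and 85.5 CPM against 227 to 276 (-1.71 ± 0.17, adjusted p = 1.18e-05). Mcl1 (-0.64 ± 0.16) and the pro-apoptotic Bcl2l11, which encodes BIM (-0.82 ± 0.22), were lower, but both lost the call without effector-like 2 (adjusted p = 0.141 and 0.189) or effector-like 1, and Bcl2l11 also without effector-like 3, naïve-like 1 or naïve-like 3.

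Ribosomal proteins form the subunits that carry out translation. All 78 cytosolic ribosomal protein genes tested had a lower mean in effector-like cells, and 67 passed the test, against 3.79% of all genes. Their log2 fold changes ran from -1.41 to -0.24 with a median of -0.90. Summed over the 78 genes, their mRNA took 67272, 61038 and 63043 CPM in the effector-like and 116010 to 139500 CPM in the naïve-like libraries, with no overlap. Memory-like libraries held 85851 to 106610 CPM, between and apart from both. They carry the date of the effector-like ones, and the part of the date in these levels was not tested. Rpsa, a small subunit protein, was at 2196, 2086 and 2268 CPM against 5051 to 6130 (-1.34 ± 0.08, adjusted p = 8.16e-08). All 78 were below 0 in each alternative fit that tested them. The fits share libraries, and 71 of the genes lay lower without overlap, so the signs of the 78 were largely fixed in advance. With library totals in place of TMM scaling their median was -0.70 with 55 called lower, and without the 3 libraries rich in tumour markers it was -0.88 with 41 called lower. Ribosomal protein genes have many processed copies in the genome, so single genes are uncertain.

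Of 34 translation factor genes, 14 were lower and 0 higher with edgeR, with a median of -0.41 (0 higher with DESeq2, and 2 at an unadjusted p under 0.05). Without the 3 libraries rich in tumour markers, 9 were lower. Eef1a1, the elongation factor that delivers aminoacyl-tRNA and the most abundant of them, was at 8622, 7430 and 7666 CPM against 15023 to 17511 (-1.04 ± 0.07, adjusted p = 4.64e-07). Tpt1 was at 2745, 2954 and 3218 CPM against 5399 to 6115 (-0.97 ± 0.08), Eef2 at 4026, 3872 and 3340 against 5552 to 6391 (-0.69 ± 0.09), Eef1b2 at 780, 651 and 558 against 1168 to 1478 (-1.04 ± 0.12), and the initiation factor subunit Eif3e at 356, 313 and 278 against 544 to 663 (-0.92 ± 0.10). None of these 5 overlapped. Among 25 ribosome biogenesis and Myc target genes, 4 were lower, and 2 without effector-like 1, without effector-like 2 or without the 3 libraries. Myc, which drives ribosome production and growth, was at 43.9, 28.4 and 37.1 CPM against 173 to 236 (-2.43 ± 0.21, adjusted p = 2.33e-06), while memory-like libraries held 162 to 287 CPM of it. The nucleolar chaperone gene Npm1 was at 1050, 937 and 546 CPM against 1362 to 1789 (-0.84 ± 0.16), and Odc1, a polyamine synthesis gene and Myc target, at 48.7, 60.6 and 78.9 against 95.4 to 184 (-0.99 ± 0.22; adjusted p = 0.0960 without effector-like 1, and lost too without effector-like 2). Rn45s was itself lower (-0.81 ± 0.13, adjusted p = 0.000796, and 0.0623 without the 3 libraries), but polyadenylated RNA libraries do not measure ribosomal RNA well.

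mRNAs of the translation machinery are known to begin with a terminal oligopyrimidine tract, a C followed by a run of C and T, through which mTOR signalling regulates their translation. Windows of 30 bases around the RefSeq transcription start (GRCm38.p6, whereas the counts were made on mm9) are shown for Eef1a1 and for the 6 ribosomal protein genes called lower with the smallest p among those holding such a tract, 5′ to 3′ on the coding strand. Capitals mark the tract.
Rps6: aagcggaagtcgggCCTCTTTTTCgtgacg
Rpl18: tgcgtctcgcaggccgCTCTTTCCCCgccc
Rpl15: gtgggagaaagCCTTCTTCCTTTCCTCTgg
Rpl28: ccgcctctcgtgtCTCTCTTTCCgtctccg
Rps26: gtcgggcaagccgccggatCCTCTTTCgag
Rpl12: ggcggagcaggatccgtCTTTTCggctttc
Eef1a1: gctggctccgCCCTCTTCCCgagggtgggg
The windows lie at chr4:86857353-86857382 (minus strand) for Rps6, chr7:45718056-45718085 (plus) for Rpl18, chr14:18270972-18271001 (minus) for Rpl15, chr7:4792950-4792979 (plus) for Rpl28, chr10:128626492-128626521 (minus) for Rps26, chr2:32961697-32961726 (plus) for Rpl12 and chr9:78481710-78481739 (minus) for Eef1a1. These ribosomal protein genes were picked among those called lower, so their fall is no finding. Rps6 was at 1751, 1412 and 1302 CPM against 3046 to 3685 (-1.13 ± 0.10). The log2 fold changes of Rpl18, Rpl15, Rpl28, Rps26 and Rpl12 were -1.07, -1.002, -1.06, -1.14 and -1.29.

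A tract was counted where a C led at least 6 pyrimidines in a row and started within 5 bases of the annotated start, a definition chosen after values were seen. RefSeq promoters (250 bases before to 50 after the start) matched 9224 of the genes tested, 587 of them called. A tract further from the annotated start was not counted. The counted tract was found in 25 of 57 ribosomal protein genes (43.9%), in 4 of 25 translation factor genes (16%) and in 10.6% of all 9224. Among translation factor genes it was in 2 of 10 called lower and 2 of 15 not called. It stood in 17.3% of the genes called lower, in 12.5% of those called lower that are neither ribosomal protein nor translation factor genes, and in 11.6% of the genes called higher. The other 8 motifs, searched on both strands of the 300 bases, are given as the share of promoters that hold them among genes called higher, genes called lower and all genes, with no test. The T-box letters TCACACC were in 4.56%, 3.76% and 3.30%, the TCF/LEF letters CTTTGA in 15.8%, 11.3% and 12.3%, and the RUNX letters ACCACA in 16.2%, 14.2% and 13%. The KLF letters CCACCC were in 39.4%, 40.5% and 36.0%, the ETS letters GGAAGT in 32.0%, 28% and 30%, and the AP-1 letters TGAGTCA in 4.98%, 2.60% and 3.79%. The E-box letters CAGCTG were in 17.4%, 13% and 14.6%, and the interferon response letters GAAACC in 21.2%, 17.9% and 16%. In ribosomal protein promoters the share with the ETS letters was 50.9%. A match describes letters in the window and is no binding site.

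Of 58 oxidative phosphorylation genes, 5 were higher and 1 lower, with 46 positive values and a median of 0.33, against 52.6% positive values and a median of 0.04 over all genes. Ndufa4 was at 155, 155 and 170 CPM against 69.7 to 118 (0.77 ± 0.16, and an adjusted p of 0.172 without the 3 libraries rich in tumour markers), and Cox6b1, a subunit of cytochrome c oxidase, at 116, 132 and 136 against 70.0 to 101 (0.70 ± 0.13). The ATP synthase genes Atp5h (0.48 ± 0.13) and Atp5l (0.65 ± 0.16) were higher but lost their calls without any 1 of the effector-like libraries (adjusted p up to 0.111 and 0.0884), Atp5h also without naïve-like 1 or 2, and Atp5g2, a ring subunit of the same enzyme, was lower (-0.56 ± 0.10, and an adjusted p of 0.0523 without the 3 libraries). The count depends on the scaling and the libraries: 19 were called higher with library totals, 11 without naïve-like 6, 3 without naïve-like 1 or 2, 2 without any 1 of the effector-like libraries, and 1 without the 3 libraries rich in tumour markers. Of 23 glycolysis genes, 2 were higher and 1 lower. The count of higher genes was 0 without effector-like 1 or without the 3 libraries, 1 without effector-like 2 and 6 without naïve-like 6, and that of lower genes was 0 without effector-like 2 or 3. Eno1 was at 1585, 1181 and 823 CPM against 490 to 817, ordered among effector-like libraries like their tumour marker sums, and lost the call without effector-like 1 (adjusted p = 0.0678). Pfkp was at 323, 320 and 393 CPM against 163 to 295 (0.66 ± 0.17; adjusted p up to 0.122, the call lost without any 1 of the effector-like libraries). Pdk1, which diverts pyruvate from mitochondria, was at 94.4, 28.98 and 16.6 CPM against 103 to 225 (-1.79 ± 0.42). Its adjusted p was 0.104 without effector-like 2, and the call was lost too without effector-like 3. Its log2 fold change was -2.82 without effector-like 1 and -3.35 without the 3 libraries rich in tumour markers. Of 25 sterol and fatty acid genes, 2 were higher and 3 lower. The higher count was 0 without effector-like 1 or 2 and 1 without naïve-like 1, 2 or 5, and the lower count was 0 without effector-like 1 and 1 without effector-like 3. Fasn (-1.08 ± 0.25) and Elovl6 (-2.09 ± 0.52) of fatty acid synthesis and the cholesterol exporter Abcg1 (-1.16 ± 0.27) were lower and the isoprenoid gene Idi1 higher (1.47 ± 0.36), and they lost the call without effector-like 2 (Abcg1 and Idi1, adjusted p = 0.0938 and 0.132) or effector-like 3 (Fasn and Elovl6, adjusted p = 0.0940 and 0.104), and each also without effector-like 1.

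**Figure D5:**
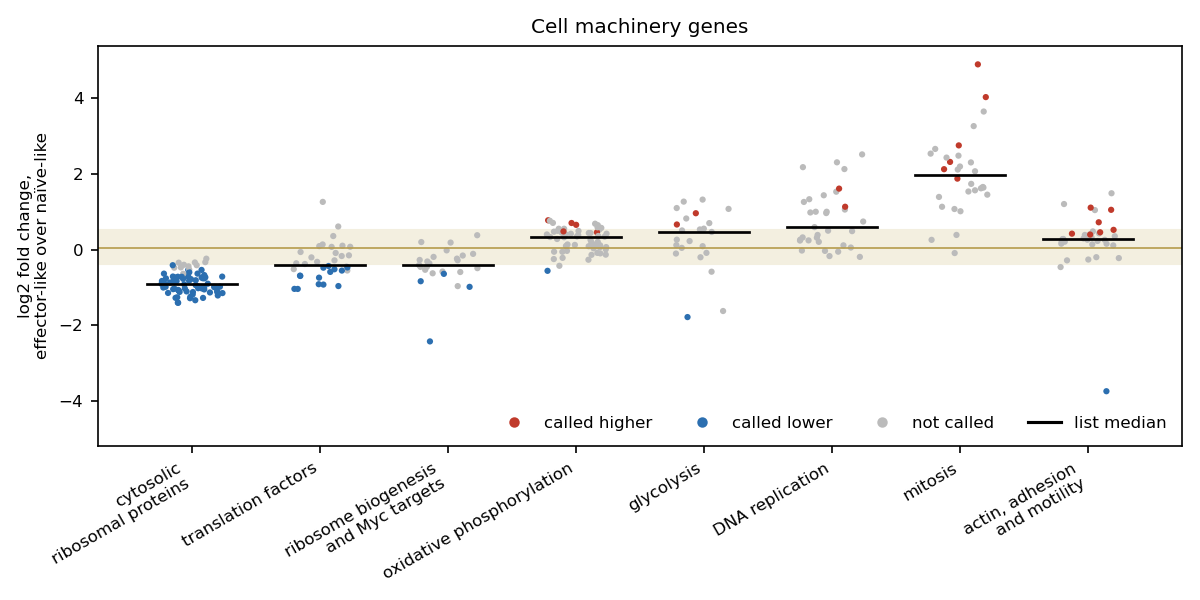
Log2 fold change of each tested gene in 8 lists, coloured by call, with the list median as a black line. The shaded band spans the quartiles of all 12388 genes (-0.38 to 0.51) and the ochre line is their median, and the ribosomal protein genes all lie below 0.

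Of 30 mitosis genes, 6 were called higher, 29 had positive values and the median was 1.97. Mki67, the Ki-67 gene, was at 36.1, 24.3 and 22.3 CPM against 0 to 8.66 (2.76 ± 0.66, adjusted p = 0.0178), Kif11, a spindle motor, at 27.5, 8.35 and 11.7 against 0 to 2.04 (4.90 ± 0.93), Birc5, which encodes survivin, at 27.4, 20.9 and 14.1 against 2.70 to 9.30 (1.88 ± 0.41), and Tpx2 at 19.1, 14.3 and 13.9 against 0.772 to 6.88 (2.13 ± 0.52). Memory-like libraries held more Ki-67 mRNA than either group, at 42.4 to 89.6 CPM. Tumour markers were also highest in effector-like 1, and their part was not tested. Without effector-like 1 a single mitosis gene was called, and Mki67, Birc5 and Tpx2 had adjusted p of 0.0820, 0.0732 and 0.0910. Tpx2 was also not called without effector-like 2. Without naïve-like 6, the naïve-like library with the most tumour marker counts, 14 were called, and without all 3 such libraries 2 were. Of 33 DNA replication genes, 2 were higher (1 without effector-like 1 or 3, 5 without naïve-like 6, 0 without the 3 libraries rich in tumour markers, and 10 without memory-like 2, naïve-like 4 and naïve-like 6). Tyms, the thymidylate synthase gene, was at 87.3, 40.6 and 35.7 against 10.7 to 21.7 CPM (1.61 ± 0.28), in the order of the tumour marker sums of the effector-like libraries, and lost the call without the 3 libraries (1.06, adjusted p = 0.216). Rpa2 was at 140, 104 and 150 against 34.7 to 95.6 (1.13 ± 0.25; adjusted p = 0.0622 without effector-like 3, and lost too without effector-like 1). Among cell cycle regulators, the D cyclin Ccnd3 was at 390, 469 and 637 CPM against 154 to 252 (1.31 ± 0.20) and the inhibitor Cdkn1a, which encodes p21, at 112, 146 and 92.9 against 28.2 to 68.8 (1.40 ± 0.27, and an adjusted p of 0.165 without the 3 libraries).

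Of 34 actin, adhesion and motility genes, 7 were higher and 1 lower. Actg1 was at 7244, 6591 and 7226 CPM against 3258 to 5284 (0.72 ± 0.12), Tmsb4x, the actin monomer binder thymosin beta-4, at 1394, 1368 and 1552 against 501 to 816 (1.05 ± 0.13), and Flna, a filamin that links actin to integrins, at 614, 637 and 600 against 235 to 336 (1.11 ± 0.16). Cfl1, an actin-severing protein, was at 1118, 1106 and 1127 CPM against 703 to 911 (0.42 ± 0.10) and had an adjusted p of 0.0548 without effector-like 1, and lost the call without effector-like 2 as well. With library totals in place of TMM scaling, 17 of the list were called higher, and 4 without effector-like 1 or without effector-like 3. Actn1, an actin crosslinker, went the other way, at 2.49, 4.73 and 1.17 CPM against 26.2 to 56.5 (-3.75 ± 0.47, adjusted p = 9.01e-05). Pecam1, an adhesion receptor of endothelium and naïve T cells, was at 17.6, 16.5 and 21.5 CPM against 55.3 to 95.4 (-2.07 ± 0.24). Of 22 S100, annexin and galectin genes, 6 were higher, from 4 without naïve-like 2 to 11 without naïve-like 6. S100a10 was at 378, 381 and 337 CPM against 126 to 233 (1.22 ± 0.18), S100a13 at 54.6, 53.9 and 80.2 against 15.01 to 29.7 (1.45 ± 0.22), and Emp3 at 163, 146 and 149 against 29.05 to 87.9 (1.33 ± 0.23). Lgals1, the galectin-1 gene, was at 951, 1055 and 600 CPM against 87.7 to 574 (median 127), highest in each group where tumour markers were high. Its log2 fold change was 2.18 ± 0.47 with an adjusted p of 0.00933, and 2.38 without the 3 libraries rich in tumour markers.

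Of 27 immediate early genes, 2 were higher and 5 lower, with a median of 0.01. Without effector-like 1 or effector-like 2, 3 were lower, and without effector-like 3 a single gene was higher. Nr4a1, a reporter of T cell receptor signals, was at 777, 657 and 1009 CPM against 337 to 498 (0.95 ± 0.17, adjusted p = 0.00272), and Dusp2, a phosphatase for ERK and p38, at 564, 489 and 700 against 147 to 375 (1.06 ± 0.22; adjusted p = 0.0526 without effector-like 3). Fos and Jun, the AP-1 subunits, were lower, at 822, 499 and 820 against 967 to 1289 CPM and at 371, 526 and 245 against 582 to 769 (-0.62 ± 0.15 and -0.80 ± 0.19), and lost their calls without effector-like 2 (Fos, adjusted p = 0.0807) or without effector-like 1 or 3 (Jun, adjusted p up to 0.0892). Dusp10, a phosphatase for JNK and p38, was at 39.7, 38.4 and 46.8 CPM against 197 to 320 (-2.61 ± 0.22, adjusted p = 2.33e-06). Of 34 interferon-stimulated genes, 1 was called higher (2 without naïve-like 1 or 6), near the 2.62% of all genes. The gene, Isg15, was at 47.0, 48.2 and 93.5 against 10.2 to 37.8 CPM (1.27 ± 0.35). Its adjusted p was 0.245 without effector-like 3. The call was also lost without any 1 of effector-like 1 and 2 and naïve-like 2, 4 and 5. Antigen presentation (20 tested) and heat shock genes (14 tested) had 1 call each, Psme1 (-0.42 ± 0.11) and Hspa8 (-0.36 ± 0.09), while 3.79% of all genes were called lower. Both calls were lost without effector-like 2 (adjusted p = 0.191 and 0.131) or effector-like 3. Psme1 was also lost without effector-like 1, naïve-like 1 or naïve-like 4, and Hspa8 without naïve-like 3. Of 10 core T cell genes, 2 were higher and 1 lower, with Cd3d at 321, 298 and 393 against 394 to 561 CPM (-0.54 ± 0.14; adjusted p = 0.162 without effector-like 2, and lost too without effector-like 1, naïve-like 1, 3 or 5) and Cd8b1 at 903, 700 and 964 against 455 to 722 (0.54 ± 0.15; adjusted p = 0.167 without effector-like 3, and lost too without effector-like 1, naïve-like 1, 3, 4 or 5).

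Several of the genes with the smallest p belonged to none of these lists. Smc4, a condensin subunit, was at 142, 98.3 and 137 CPM against 419 to 625 (-2.07 ± 0.16, adjusted p = 9.39e-07). Nsg2, named after its values were seen, was at 4.72, 2.05 and 2.54 CPM against 80.5 to 112 (-4.88 ± 0.42, adjusted p = 2.33e-06). Among plasmacytoid dendritic cell markers, 3 of 20 were called lower (1 without effector-like 1, effector-like 3 or the 3 libraries), of which Atp1b1, a sodium pump chain that T cells also express, was at 11.7, 10.9 and 0.390 CPM against 35.4 to 82.6 (-3.02 ± 0.69), and Pacsin1 at 8.39, 6.30 and 4.49 against 14.9 to 45.04 (-2.05 ± 0.56; adjusted p = 0.143 without effector-like 3, and lost too without effector-like 1 or 2 or naïve-like 1, 2, 3 or 4). The sum of these 20 markers was 510 to 641 CPM in effector-like and 591 to 1203 in naïve-like libraries, which overlapped.

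The mean CPM of the memory-like libraries fell between those of the effector-like and naïve-like groups for 262 of the 325 genes called higher and for 411 of the 470 called lower. It was above both for 43 and 40 of them and below both for 20 and 19. As these genes were chosen for their difference between the outer groups, this is a description and was not tested. Tcf7, Id2 and the ribosomal protein genes were graded in this way, with memory-like libraries at 250 to 349 CPM for Tcf7 and 322 to 388 for Id2, apart from both groups. Lef1 was at 101 to 157 CPM in memory-like libraries, overlapping the effector-like values of 95.0, 101 and 128, and S1pr1 overlapped them likewise. Klra6, Klra7 and Myc had memory-like values that overlapped the naïve-like ones, while Gzma, Klrg1 and S1pr5 had memory-like values below every effector-like library. Cx3cr1 did too, but its protein set the gate between these groups, so this is no finding. The memory-like and effector-like libraries share a date in their names, unlike the naïve-like ones.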

How the data were processed

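RNA from sorted cells was sequenced in 14 libraries of 1 table (3 effector-like, 6 naïve-like and 5 memory-like). The authors deposited expected counts, which estimate each gene's reads and carry no scaling, and 22.6% of the values were not whole. The submitters' processing notes name TopHat, RSEM and DESeq and the mm9 genome, with no role, order or version. Expected counts were rounded. The table had 21614 rows. Repeated names excluded 4 of them, and 27 whose names had become dates stayed in. Groups followed the labels. All 14 libraries were fitted with edgeR 4.0.16 in R 4.3.3 (filterByExpr, TMM, quasi-likelihood test, no block; 12388 genes; biological coefficient of variation 0.624), and p-values were adjusted by Benjamini-Hochberg over all genes. SE was derived from the F statistic. On simulated data for this comparison with 12388 genes, 22% of genes changed 2-fold and 50% of genes changed 4-fold were called. A count of 0 was given a floor of 3 counts over the group's total, which covers counting error only. DESeq2 1.42.0 and other settings were alternatives. Genes were named by a rule: the sort genes, the 15 genes with the smallest p each way without overlap, from each list at most 4 genes called higher and 4 called lower (2 genes where none was called), 21 genes of T cell states, and the 5 most abundant called genes each way. A few of these genes are not reported here. Genes outside it were chosen after their values were seen (Foxo1, Zeb1, Ikzf2, Gzmk, Gzmc, Prf1, Fasl, Serpinb9, Klrk1, Klrd1, Klra1, Klra5, Klra13-ps, Klra23, Klra9, Klra3, Tnf, Tnfrsf9, Cish, Socs3, Nsg2, Rps6, Rpl18, Rpl15, Rpl28, Rps26, Rpl12, Foxp3, C1qa, C1qc and Klra22). The comparison and the lists were chosen with earlier results of these data known. Libraries with the same title number did not deviate together (correlations of -0.15, -0.09 and 0.07), and no pairing was used. Effector-like 2 and 3 carry other numbers inside their names (4, 5 and 6, and 5) than in their titles. This check therefore cannot tell whether animals were shared.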

Additional observations from a re-analysis of the deposited data

Results flagged for a closer look

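In 15 of the 161 genes named, 1 of the 6 naïve-like libraries stood further from the others than Dixon's 95% limit allows, and chance alone gives this in about 1 of 20 groups. The 3 effector-like and 5 memory-like libraries were not examined in this way.

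Naïve-like 4 was that library for 7 genes. It was highest for Tbx21, at 159.4 CPM against 71.95 to 96.37 in the others, for Tnfrsf9 at 121.7 against 10.21 to 25.55, for Zeb1 at 302.1 against 77.01 to 127.6, for Bcl2l11 at 393.9 against 180.9 to 237.8 and for Odc1 at 183.8 against 95.43 to 124.5. It was lowest for Prdm1, at 0.4896 CPM against 6.753 to 9.757, and for Rpl15, at 1238 against 1436 to 1541. Naïve-like 4 thus combined high mRNA of T-bet and 4-1BB, which are induced on activation, with high Zeb1 and the lowest Prdm1. Il2ra and Icos were at their lowest naïve-like values in it, at 0.326 and 108 CPM. It had the fewest genes detected of the naïve-like libraries, 11522. It lay at -97.6 on the first principal component of all libraries, which held 24.4% of the variance.

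Naïve-like 6, which carried 1166 CPM of tumour and stroma markers, stood apart for 4 genes, with Lgals1 at 573.9 CPM against 87.74 to 141.9, Kif11 at 2.039 against 0 to 0.6176, Cox6b1 at 100.9 against 70.01 to 79.85 and Atp5g2 at 284.1 against 239.4 to 254.2. Naïve-like 1 was highest for the natural killer receptor genes Klrk1 and Klrd1, at 334.9 CPM against 119.4 to 194.7 and at 332.6 against 211.1 to 254.2. Klrg1 was highest in naïve-like 5 at 2.102 CPM against 0 to 0.772, and Il2ra in naïve-like 3 at 9.573 against 0.3264 to 3.212.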

How the results depend on the processing

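Effector-like and naïve-like libraries differ by date in their names, effector-like libraries may share animals, and the biological coefficient of variation of 0.624 left many changes undetected. DESeq2 called 1284 genes (537 higher and 747 lower), and a test against a 1.5-fold threshold called 249 (91 and 158). Omitting memory-like 2, naïve-like 4 and naïve-like 6 gave 1319 calls, 675 of them higher. Library totals in place of TMM scaling gave 681 higher calls. Without effector-like 1, effector-like 2 and naïve-like 6, 271 were called (118 higher and 153 lower). The last pair of settings was chosen after seeing the data, as was leaving ribosomal proteins out of the library sizes. Leaving out 1 library at a time gave 484 (without effector-like 1) to 1068 (without naïve-like 6) calls, 187 (effector-like 1) to 564 (naïve-like 6) higher and 296 (effector-like 2) to 504 (naïve-like 6) lower.

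A replicate block by title number gave 580 calls, 488 of them shared with the 795, and 128 of the 151 called genes named in the text were called with it. The pairing that it assumes is not given by the labels. DESeq2 size factors (807), no filter on low counts (701), the 9 libraries alone (632), leaving out Rn45s (795) and leaving ribosomal proteins and Rn45s out of the library sizes (694) stayed within 1.5 times the 795. Of the 151 named genes called, 113 were called in all 9 omissions of 1 library. All 151 kept their sign without effector-like 1, effector-like 2 and naïve-like 6. This was largely fixed in advance, as the genes were called in a fit that holds the same libraries. Klrd1 changed sign with the block (-0.08043), without effector-like 3 (-0.1241, up to 0.1756 without effector-like 2) and without memory-like 2, naïve-like 4 and naïve-like 6 (-0.01182), and the cause was not tested.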
